A study of Mus musculus with 40 samples.

Results

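The 7 genes described here encode the FOS and JUN subunits of AP-1, the mouse genes Fos, Fosb, Fosl1 and Fosl2 of the FOS family and Jun, Junb and Jund of the JUN family. They were chosen by family membership, with earlier results of these data known, and all 7 were found among the 51789 genes that were counted. Their levels were followed in cultured mouse melanoma cells over 40 libraries, 2 for each of 20 groups.

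AP-1 is a dimer of leucine zipper proteins that binds the DNA letters TGACTCA and, with ATF family partners, TGACGTCA. JUN proteins pair with each other or with FOS proteins, whereas FOS proteins need a JUN partner to bind DNA. Growth factor, stress and cytoskeletal signals induce Fos, Fosb, Jun and Junb within minutes, Jund is made more steadily, and in melanoma the BRAF to ERK pathway that raises Fosl1 is often active and AP-1 has been linked to loss of melanocytic identity.

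B16-F10 is a mouse melanoma line, and its Ctrl group and its group labelled KO for Arntl (Bmal1) each come from 1 clone. The engineered alleles of YUMM2.1 include mutant Braf, a lost Cdkn2a allele and a stabilized beta-catenin allele, and those of YUMM1.7 include mutant Braf and loss of Cdkn2a. The clone aC3 is a Bmal1-null clone of YUMM2.1 made with CRISPR, so its 3 groups share that deletion. The groups of aC3, YUMM2.1 and YUMM1.7 carry an empty vector (EV), wild-type Bmal1 (WT-Bmal1) or a mutant Bmal1 (dHLH-Bmal1). The mutant, which the labels abbreviate as bHLH or dH, lacks the DNA binding part, the basic helix-loop-helix. In aC3 and YUMM2.1 a lentivirus delivered these, and the cells were sorted for GFP. The paper also describes them as made from cells with a luciferase reporter of the Bmal1 promoter, selected with blasticidin. For YUMM1.7 the paper does not state how the cells were made. YUMM2.1 and YUMM1.7 cells keep their own Bmal1 in all of these groups. A second YUMM2.1 experiment combined EV, WT-Bmal1 or dHLH-Bmal1 with a scrambled hairpin (shNC) or with hairpin shMyh9#2 or shMyh9#4, which target Myh9, the heavy chain of nonmuscle myosin, under puromycin selection. The labels number the libraries of a group without saying what a number stands for, so that p-values measure the spread between the 2 libraries, whatever its source.

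Library totals ran from 3643332 to 22970049 counts, and the smallest was the first library of dHLH-Bmal1 cells with shMyh9#4. QuantSeq reads only the 3′ end, so a count stands for about a transcript and levels in CPM (counts scaled to library size by TMM) can be set side by side between genes without a length term. The quasi-likelihood test of edgeR was used throughout, and a gene was called where its p, adjusted by the Benjamini-Hochberg method over all genes of the fit, was under 0.05. With 2 libraries against 2, the smallest p of an exact permutation test is 0.333, and no such test was made. Arntl itself did not separate the B16-F10 groups (319 and 221 counts in Ctrl, 326 and 240 in KO, edgeR adjusted p = 0.92) and stood at 33.1 and 30.5 CPM in aC3 EV cells, and a 3′ tag outside the edited part of a gene checks nothing. In B16-F10, all 8 melanocytic markers looked up (Mitf, Sox10, Pmel, Tyr, Tyrp1, Dct, Mlana and Gpr143) were above 1 CPM in every library, with a sum of 19768 to 26048 CPM. In YUMM2.1 and aC3, Mitf and Sox10 were the markers above 1 CPM in every library and 5 of 8 were under 1 CPM in all of them (sum 31.5 to 626 CPM). In YUMM1.7, Mitf alone was above 1 CPM throughout (sum 10.7 to 14.8 CPM), and the 9 markers of other cell types summed to 5.87 to 27.1 CPM over all libraries.

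A doubt about labels has to stand before the results. Over 1809 genes, the study's own normalized values for YUMM2.1 EV replicate 2 follow the deposited library WT-Bmal1 replicate 1, and those for WT-Bmal1 replicate 1 follow the deposited library EV replicate 2, while the other 6 of 8 columns compared follow the library of the same label. The deposited labels are used below, and after each set of comparisons with YUMM2.1 the calls are also given with these 2 labels exchanged and without both libraries.

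The promoters of Fos, Jun and Junb are shown because Fos and Jun hold a known type of response element close to the start, and because Junb was among the members that moved furthest. Each sequence is the 250 bases before the RefSeq start (build GRCm38.p6), written 5′ to 3′ on the strand of the gene, with any match to a searched motif in capitals. Fos lies at chr12:85473640-85473889 (plus strand), Jun at chr4:95052223-95052472 (minus strand) and Junb at chr8:84978749-84978998 (minus strand).
Fos: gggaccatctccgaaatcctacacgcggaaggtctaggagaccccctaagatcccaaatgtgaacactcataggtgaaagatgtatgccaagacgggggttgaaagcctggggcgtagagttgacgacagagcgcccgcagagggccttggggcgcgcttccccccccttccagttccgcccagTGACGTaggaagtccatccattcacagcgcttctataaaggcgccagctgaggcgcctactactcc
Jun: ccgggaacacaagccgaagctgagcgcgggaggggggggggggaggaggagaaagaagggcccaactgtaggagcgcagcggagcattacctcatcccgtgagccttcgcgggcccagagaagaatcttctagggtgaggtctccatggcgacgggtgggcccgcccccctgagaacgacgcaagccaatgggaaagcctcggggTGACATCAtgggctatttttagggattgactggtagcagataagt
Junb: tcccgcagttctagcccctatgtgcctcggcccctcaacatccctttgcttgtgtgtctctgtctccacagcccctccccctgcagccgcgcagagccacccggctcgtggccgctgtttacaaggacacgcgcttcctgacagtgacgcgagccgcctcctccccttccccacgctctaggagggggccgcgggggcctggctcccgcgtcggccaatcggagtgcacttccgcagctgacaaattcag

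The letters searched, on both strands, were the E-box CACGTG that BMAL1 and CLOCK bind, TGACTCA, TGACGTCA, the shorter TGACGT that it contains, TGACATCA and the CArG box of SRF. The table held a window for 6 of the 7 genes, Fosl1 being the other. The Fos window holds TGACGT at -66 to -61 from the start, letters found in 6.47% of 32851 mouse promoter windows. The Jun window holds TGACATCA at -45 to -38, found in 2.93% of windows. The windows of Fosb, Fosl2, Junb and Jund held none of the letters searched, and CACGTG, present in 6.02% of all windows, was in none of the 6. A match is a description of letters, and an absent match says only that these letters are not in this window. The Jund window (chr8:70697489-70697738) ends before the GENCODE start of Jund at 70698949. The Fosl2 window (chr5:32136222-32136471) lies inside the GENCODE span of Fosl2, which starts at 32135801. For both genes the bases just before the GENCODE start were not searched.

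In the GENCODE annotation of GRCm38, Fos spans 85473890 to 85477273 of chromosome 12, Fosb 19302696 to 19310051 of chromosome 7, Fosl1 5447547 to 5455946 of chromosome 19 and Fosl2 32135801 to 32157842 of chromosome 5. Jun spans 95049034 to 95052222 of chromosome 4, Junb 84974484 to 84978718 of chromosome 8 and Jund 70698949 to 70700616 of the same chromosome. Whether counting used strand is not stated, and Fosl1, Jun, Junb and Jund overlap a gene on the other strand. The partners of Fosl1, Jun and Jund (Ccdc85b, Junos and Gm11175) stayed at or under 2.41 CPM. The partner of Junb, Prdx2, which encodes a peroxidase, overlaps its 3′ end and stood at 129 to 298 CPM, so its values are given beside several of the Junb results.

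Across the 40 libraries Jun had the highest median level of the 7 genes, 190 CPM, with a range of 49.5 to 328 CPM. Fosl2 (median 80.9 CPM, 16.7 to 150 CPM) and Jund (median 80.6 CPM, 42.2 to 222 CPM) came next, then Fosl1 (median 49.0 CPM, 0 to 185 CPM) and Junb (median 18.8 CPM, 5.13 to 49.8 CPM). Fosb (median 1.37 CPM) and Fos (median 0.805 CPM) were close to the limit of detection, with at most 46 counts of Fosb and 55 counts of Fos in a library. The 2 immediate early FOS genes were thus present at a trace, while Fosl1 and Fosl2 carried nearly all FOS family reads.

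**Figure D1:**
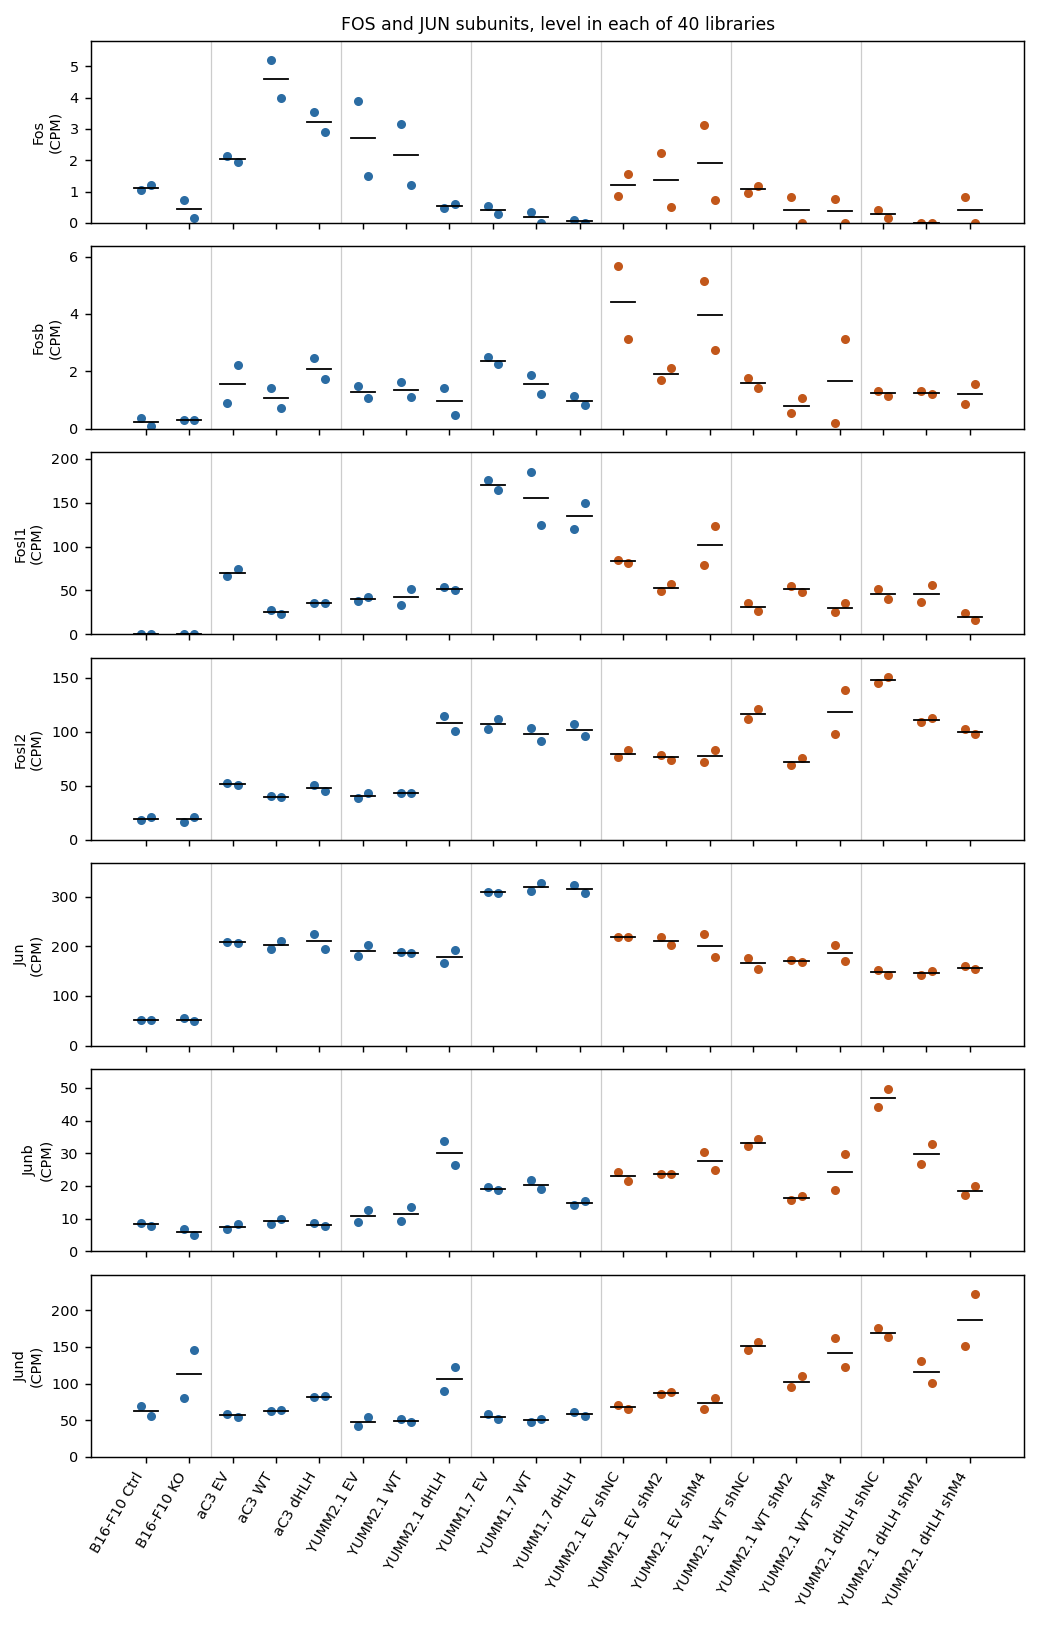
Level of each FOS and JUN gene in CPM (linear axis from 0) in each of the 40 libraries, 1 panel per gene. Points are libraries, the short black line is the mean of the 2 libraries of a group, and orange points are the YUMM2.1 hairpin groups. Fosl1 sits near 0 in B16-F10 and is highest in YUMM1.7, and Junb and Fosl2 are highest in dHLH-Bmal1 cells with shNC.

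The 7 genes made up different mixtures in the lines. Jun held the largest share of their summed level in YUMM2.1 EV (57.0%) and YUMM1.7 EV (46.6%), whereas Jund held the largest share in B16-F10 Ctrl (43.6%). Fosl1 was 25.6% of the sum in YUMM1.7 EV, 17.6% in aC3 EV, 11.9% in YUMM2.1 EV and 0.0835% in B16-F10 Ctrl. The 4 FOS genes together stood at 280.3 ± 2.38 CPM (SD, n = 2) in YUMM1.7 EV, 126 ± 5.79 CPM in aC3 EV, 85.1 ± 4.85 CPM in YUMM2.1 EV, with B16-F10 Ctrl at 21.3 ± 1.92 CPM. The 3 JUN genes together ran in the same order, from 383 ± 8.37 CPM in YUMM1.7 EV through 273 ± 3.46 and 251 ± 26.3 CPM in aC3 EV and YUMM2.1 EV to 122 ± 10.2 CPM in B16-F10 Ctrl. The values of aC3 EV and YUMM2.1 EV for the JUN genes lie within their SD of each other.

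**Figure D2:**
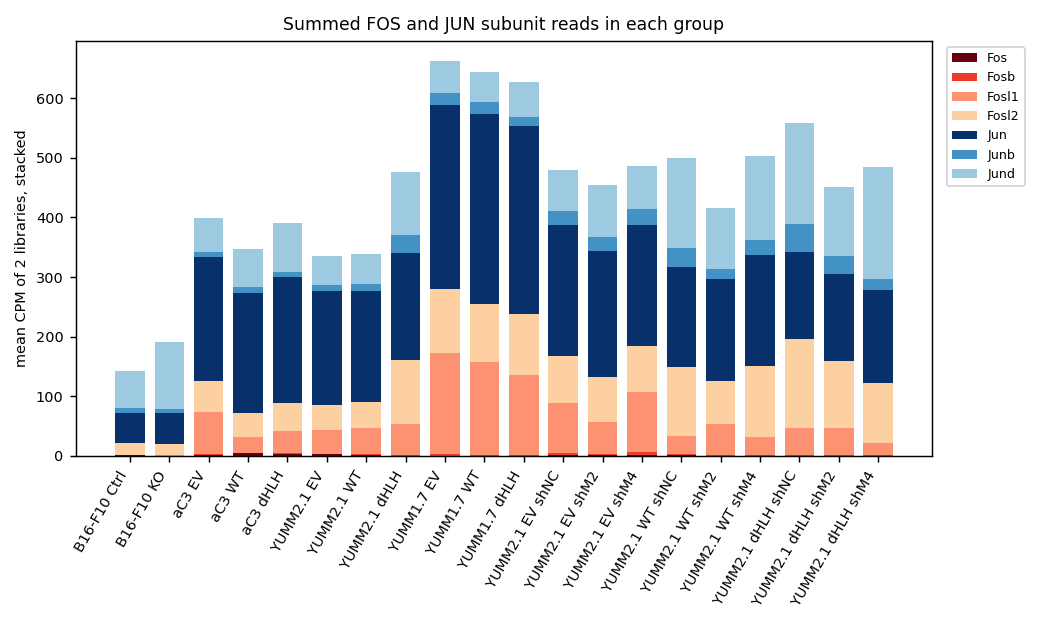
Mean level of the 7 genes (CPM, mean of 2 libraries, stacked, axis from 0) in each of the 20 groups. Reds are FOS genes and blues are JUN genes. Jun is the thickest band in YUMM2.1 EV and YUMM1.7 EV, and Jund is the thickest in B16-F10.

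Between lines, Fosl1, Fosl2 and Jun ran in the same order, highest in YUMM1.7 and lowest in B16-F10. Fosl1, whose protein is stabilized by ERK, read 176 and 164 CPM in YUMM1.7 EV, 66.1 and 74.4 CPM in aC3 EV and 37.8 and 42.4 CPM in YUMM2.1 EV. In B16-F10 Ctrl it had 4 counts and 1 count, or 0.191 and 0.0485 CPM, and the 4 lines do not overlap. The ratio of YUMM2.1 EV to B16-F10 Ctrl was 331, with a 95% counting interval of 141 to 1022, and that of YUMM1.7 EV was 1417 (607 to 4366), intervals that cover counting error only. Against YUMM2.1 EV, Fosl1 was higher in YUMM1.7 EV by 2.08 on the log2 scale (SE 0.13, edgeR adjusted p = 1.33e-06) and in aC3 EV by 0.81 (SE 0.13, edgeR adjusted p = 0.0135). The aC3 call was lost without either aC3 EV library or without either YUMM1.7 EV library, with values of 0.72 to 0.89 and edgeR adjusted p of 0.0509 to 0.219, so its side of the threshold rests on single libraries.

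Fosl2, which like Fosl1 encodes a FOS protein without the C-terminal activation domain of Fos, read 103 and 112 CPM in YUMM1.7 EV, 52.6 and 51.2 in aC3 EV, 38.5 and 43.6 in YUMM2.1 EV, and 18.3 and 21.3 in B16-F10 Ctrl. No 2 of these lines overlap. Compared with YUMM2.1 EV, Fosl2 was 2.61-fold higher in YUMM1.7 (log2 1.38, SE 0.12, edgeR adjusted p = 1.4e-05), lower in B16-F10 (log2 -1.08, SE 0.12, edgeR adjusted p = 4.69e-05), and at a log2 difference of 0.34 (edgeR adjusted p = 0.234) in aC3. Fos, the prototype immediate early subunit, had 47 and 14 counts in YUMM2.1 EV against 6 and 3 in YUMM1.7 EV (log2 -2.73, SE 0.63, edgeR adjusted p = 0.00716), a call lost without YUMM2.1 EV replicate 1 (-1.87, adjusted p = 0.0705) or YUMM1.7 EV replicate 2 (-2.35, adjusted p = 0.0683). Fosb was lower in B16-F10 than in YUMM2.1 (log2 -2.42, SE 0.72, edgeR adjusted p = 0.0173), on 8 and 2 counts against 18 and 10, and that call was lost without YUMM2.1 EV replicate 1 (-2.16, adjusted p = 0.0689) or B16-F10 Ctrl replicate 2 (-1.78, adjusted p = 0.107).

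Jun, the strongest activator of its family, read 310 and 307 CPM in YUMM1.7 EV, 210 and 207 in aC3 EV, 181 and 202 in YUMM2.1 EV, and 50.7 and 51.4 in B16-F10 Ctrl. YUMM1.7 stood above and B16-F10 below the other lines in every library. Relative to YUMM2.1 the log2 difference of Jun was 0.68 (SE 0.09, edgeR adjusted p = 0.000256) in YUMM1.7 and -1.93 (SE 0.09, edgeR adjusted p = 9.26e-08) in B16-F10. Junb read 19.8 and 18.6 CPM in YUMM1.7 EV and 9.05 and 12.7 in YUMM2.1 EV (log2 0.82, SE 0.20, edgeR adjusted p = 0.0107), and the call was lost without YUMM1.7 EV replicate 1 (0.78, adjusted p = 0.0659). Prdx2, which overlaps Junb, had a log2 difference of 0.15 in YUMM1.7 against YUMM2.1 (edgeR adjusted p = 0.301). In B16-F10 against YUMM1.7, Junb was lower (-1.22, edgeR adjusted p = 0.000535) and so was Prdx2 (-0.29, edgeR adjusted p = 0.0338). Jund did not pass the test in any of the line comparisons, at 42.2 to 69.6 CPM over the 8 libraries. In all, 5 of 7 members were called in YUMM1.7 against YUMM2.1, where 37.1% of all genes tested were, 1 in aC3 against YUMM2.1 (1.75% of all genes), 4 in B16-F10 against YUMM2.1 (54.3%) and 5 in B16-F10 against YUMM1.7 (54.5%). With the YUMM2.1 labels exchanged or both doubted libraries left out, every member called against YUMM2.1 was called again. The Fosl1 differences from YUMM2.1 were then 2.23 and 2.16 in YUMM1.7 (edgeR adjusted p = 3.42e-10 and 2.47e-08) and 0.96 and 0.89 in aC3 (edgeR adjusted p = 6.24e-05 and 0.00131). With the labels exchanged, Fos (log2 -1.67, adjusted p = 0.00262) and Jund (0.39, adjusted p = 0.0133) were called as well in B16-F10 against YUMM2.1, and Fos in B16-F10 against YUMM1.7 (1.42, adjusted p = 0.0339). Without both libraries these were -1.81 (adjusted p = 0.0114), 0.53 (adjusted p = 0.00724) and 1.42 (adjusted p = 0.0506). The shares of all genes called in the 4 comparisons, in the order above, were 48.5%, 9.76%, 61.7% and 62.4% with the labels exchanged and 39.5%, 5.84%, 51.7% and 60.8% without both libraries. B16-F10 Ctrl carries no vector, so that line and vector cannot be told apart there. The luciferase reporter is described for YUMM2.1 and aC3 cells only, and its part in the line comparisons was not tested.

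In B16-F10, none of the 5 members tested was called between KO and Ctrl, where edgeR called 0.44% of all genes and gave 11.8% an unadjusted p under 0.05. Jund read 69.6 and 55.3 CPM in Ctrl and 80.7 and 146 CPM in KO. Both KO libraries were higher than the Ctrl libraries but lay far apart (log2 0.86, SE 0.31, edgeR adjusted p = 0.387). Junb read 8.81 and 7.90 CPM against 6.93 and 5.13 CPM (log2 -0.48, edgeR adjusted p = 0.536), and Fos had 22 and 25 counts against 18 and 3 (log2 -1.34, edgeR adjusted p = 0.553). Jun (50.7 and 51.4 against 55.1 and 49.5 CPM) and Fosl2 (18.3 and 21.3 against 16.7 and 21.2 CPM) overlapped between the groups. Without KO replicate 1, Fos (-2.93, adjusted p = 0.0306), Junb (-0.71, adjusted p = 0.0224) and Jund (1.22, adjusted p = 5.3e-23) passed the threshold, and without KO replicate 2 Jund did (0.36, adjusted p = 0.027), so the outcome in this line depends on how a lone library is modelled. In log2 CPM over genes, the 2 KO libraries correlated at 0.961, and KO replicate 1 was closer to Ctrl replicate 1 (0.977). Fosb and Fosl1, with at most 8 counts in a library, were too low to be tested.

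In the Bmal1-null clone aC3, both WT-Bmal1 and dHLH-Bmal1 lowered Fosl1. Fos was called higher with WT-Bmal1 and Jund with dHLH-Bmal1, but each of these calls was lost when a single library was left out, as given below. Fosl1 read 66.1 and 74.4 CPM with EV, 27.9 and 23.4 CPM with WT-Bmal1, and 36.2 and 36.0 CPM with dHLH-Bmal1. Both constructs stood below EV in every library. WT-Bmal1 brought Fosl1 to 0.366 of its EV level (log2 -1.45, SE 0.12, edgeR adjusted p = 7.92e-06) and dHLH-Bmal1 to 0.509 (log2 -0.97, SE 0.11, edgeR adjusted p = 0.000304). These calls stood when any library was left out. The constructs did not pass the test against each other (log2 0.48 for dHLH-Bmal1 over WT-Bmal1, SE 0.12, edgeR adjusted p = 0.0996), although the libraries do not overlap.

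Among the other members Fos, on few reads, had 24 and 21 counts with EV, 55 and 39 with WT-Bmal1, then 36 and 27 with dHLH-Bmal1. It was 2.24-fold higher with WT-Bmal1 than with EV (log2 1.16, SE 0.36, edgeR adjusted p = 0.0486), and Fosl2 was lower (52.6 and 51.2 CPM against 41.1 and 39.3 CPM, log2 -0.37, SE 0.11, edgeR adjusted p = 0.0375). Both calls were lost when any of the 4 EV and WT-Bmal1 libraries was left out, with values of 0.96 to 1.33 for Fos (edgeR adjusted p of 0.116 to 0.293) and -0.40 to -0.35 for Fosl2 (0.133 to 0.195). Jund, the steadily expressed JUN, read 58.5 and 55.0 CPM with EV, 62.6 and 64.0 with WT-Bmal1, then 81.3 and 83.3 with dHLH-Bmal1. It was 1.44-fold higher with dHLH-Bmal1 than with EV (log2 0.52, SE 0.09, edgeR adjusted p = 0.00314), a call lost without EV replicate 2 (0.48, adjusted p = 0.0715). Jun, Junb and Fosb passed in no aC3 comparison, and Jun stayed at 194 to 224 CPM. The members called were 3 of 7 for WT-Bmal1 against EV, beside 11.2% of all genes tested, 2 of 7 for dHLH-Bmal1 against EV (10.9%) and 0 of 7 for dHLH-Bmal1 against WT-Bmal1 (0.877%). Sox10, a melanocytic lineage factor and 1 of 2 melanocytic markers tested, was higher than with EV (441 to 452 CPM) both with WT-Bmal1 (547 to 552 CPM, edgeR adjusted p = 0.0389) and with dHLH-Bmal1 (551 to 610 CPM, edgeR adjusted p = 0.0147). Its part in these results was not tested, and neither of the 2 other-cell markers tested was called.

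In YUMM2.1 cells, dHLH-Bmal1 raised Fosl2, Junb and Jund, and Jun did not pass the test. Fosl2 read 38.5 and 43.6 CPM with EV, 43.4 and 43.3 CPM with WT-Bmal1, and 115 and 101 CPM with dHLH-Bmal1. Junb, a JUN protein that can oppose Jun at many genes, read 9.05 and 12.7, then 9.14 and 13.5, then 33.9 and 26.5 CPM in the same order. Jund read 42.2 and 54.2, then 51.1 and 48.0, then 89.8 and 122 CPM. For these 3 genes both dHLH-Bmal1 libraries lie above all 4 others, and EV and WT-Bmal1 overlap.

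Against EV, Fosl2 was 2.64-fold higher with dHLH-Bmal1 (log2 1.40, SE 0.14, edgeR adjusted p = 0.00228), Junb 2.79-fold (log2 1.48, SE 0.27, edgeR adjusted p = 0.0165) and Jund 2.2-fold (log2 1.14, SE 0.19, edgeR adjusted p = 0.0129). Against WT-Bmal1 the same genes were called, with log2 differences of 1.33, 1.43 and 1.10 (edgeR adjusted p = 0.00264, 0.0186 and 0.0144). That made 3 of 7 members called in each of these comparisons, where 13.2% and 13% of all genes tested were called. Between WT-Bmal1 and EV, 0 of 7 members and 0 of 14323 genes were called with edgeR (background 0%), and 98 genes had an unadjusted p under 0.05. This is the comparison that the doubt about labels touches most, and edgeR called 101 genes there with the 2 labels exchanged and 40 without both libraries, in each case with 0 of 7 members. Prdx2, which overlaps Junb, had a log2 difference of 0.15 (edgeR adjusted p = 0.469) between dHLH-Bmal1 and EV. Of the 2 melanocytic markers tested, Sox10 alone was called. It was lower with dHLH-Bmal1 (66.2 and 72.9 CPM) than with EV (484 and 501 CPM, log2 -2.82, edgeR adjusted p = 0.000621). The median log2 difference of the 2 markers was -1.25, so Sox10 does not stand for both. None of the 3 other-cell markers tested was called. Cdh5, an endothelial cadherin, was called higher with the labels exchanged (3.35, edgeR adjusted p = 0.00317) and without both libraries (3.91, edgeR adjusted p = 0.0212). In bulk RNA, fewer cells with a transcript and less of it per cell cannot be told apart.

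Fos moved the other way in these cells on few reads, with 47 and 14 counts in EV, 37 and 12 in WT-Bmal1, and 5 and 5 in dHLH-Bmal1. The difference between dHLH-Bmal1 and EV did not pass as labelled (log2 -2.34, SE 0.76, edgeR adjusted p = 0.0902) and passed with the replicate block (log2 -2.26, edgeR adjusted p = 0.0278), which takes the labels' numbers as pairs. Jun read 181 and 202 CPM with EV and 166 and 192 CPM with dHLH-Bmal1 (log2 -0.09, SE 0.13, edgeR adjusted p = 0.695), and Fosl1 37.8 and 42.4 CPM against 53.7 and 50.5 CPM (log2 0.39, SE 0.21, edgeR adjusted p = 0.28). With the 2 doubted labels exchanged, Fosl2, Junb and Jund had log2 differences from EV of 1.40, 1.73 and 1.18 (edgeR adjusted p = 6.5e-05, 0.000229 and 0.00117), and Fos (-2.71, adjusted p = 0.00396) and Fosl1 (0.54, adjusted p = 0.0193) were called too. That was 5 of 7 members, beside 28.7% of all genes. Against WT-Bmal1 the exchanged labels gave 1.33, 1.22 and 1.06 (edgeR adjusted p = 0.000169, 0.00227 and 0.00331), or 3 of 7 beside 18.9%. Without both libraries they were 1.48, 1.73 and 1.31 (edgeR adjusted p = 0.00108, 0.00288 and 0.00425), Fos was called (-2.87, adjusted p = 0.0279), Fosl1 was not (0.45, adjusted p = 0.336), and 4 of 7 members stood beside 11.9% of all genes. Against WT-Bmal1, Fosl2 (1.33, adjusted p = 0.00442) and Jund (1.15, adjusted p = 0.0173) were called without both libraries and Junb was lost (1.17, adjusted p = 0.0522), which left 2 of 7 beside 6.43%.

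Single libraries also decided some of these calls. The Fosl2 calls stood whichever library was left out. The Junb difference from EV was lost without EV replicate 1 (1.25, adjusted p = 0.0797) or dHLH-Bmal1 replicate 1 (1.29, adjusted p = 0.0688), and that of Jund without EV replicate 1 (0.97, adjusted p = 0.0655) or dHLH-Bmal1 replicate 2 (0.89, adjusted p = 0.052). Against WT-Bmal1, Junb was lost without WT-Bmal1 replicate 1 (1.17, adjusted p = 0.155) or dHLH-Bmal1 replicate 1 (1.24, adjusted p = 0.0755). Jund was lost there without WT-Bmal1 replicate 1 (1.15, adjusted p = 0.109), WT-Bmal1 replicate 2 (1.05, adjusted p = 0.0853) or dHLH-Bmal1 replicate 2 (0.86, adjusted p = 0.0569).

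In YUMM1.7, which starts with the highest Fosl1 and Jun levels, no member passed the test for either construct. Fosl1 read 176 and 164 CPM with EV, 185 and 125 CPM with WT-Bmal1 and 120 and 150 CPM with dHLH-Bmal1. Fosl2 stayed at 91.4 to 112 CPM and Jun at 307 to 328 CPM in all 6 libraries. Junb read 21.8 and 19.0 CPM with WT-Bmal1 and 14.2 and 15.3 CPM with dHLH-Bmal1, groups that do not overlap (log2 -0.48, SE 0.14, edgeR adjusted p = 0.0949). edgeR called 0 of the 6 members tested in each comparison, beside 0.138% of all genes for WT-Bmal1 against EV, 0.63% for dHLH-Bmal1 against EV and 2.57% for dHLH-Bmal1 against WT-Bmal1, and 10.3%, 10.3% and 15.4% of all genes had an unadjusted p under 0.05. Without WT-Bmal1 replicate 1, Fosl1 was called lower than EV with WT-Bmal1 (-0.44, adjusted p = 0.0189) and with dHLH-Bmal1 (-0.33, adjusted p = 0.0328). Without WT-Bmal1 replicate 2 it was called lower with dHLH-Bmal1 than with EV (-0.33, adjusted p = 0.0377) and than with WT-Bmal1 (-0.47, adjusted p = 0.00747). Fos, with at most 6 counts in a library, was not tested, and it had 0 counts in the second WT-Bmal1 and dHLH-Bmal1 libraries, which allows up to 0.273 and 0.276 CPM.

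**Figure D3:**
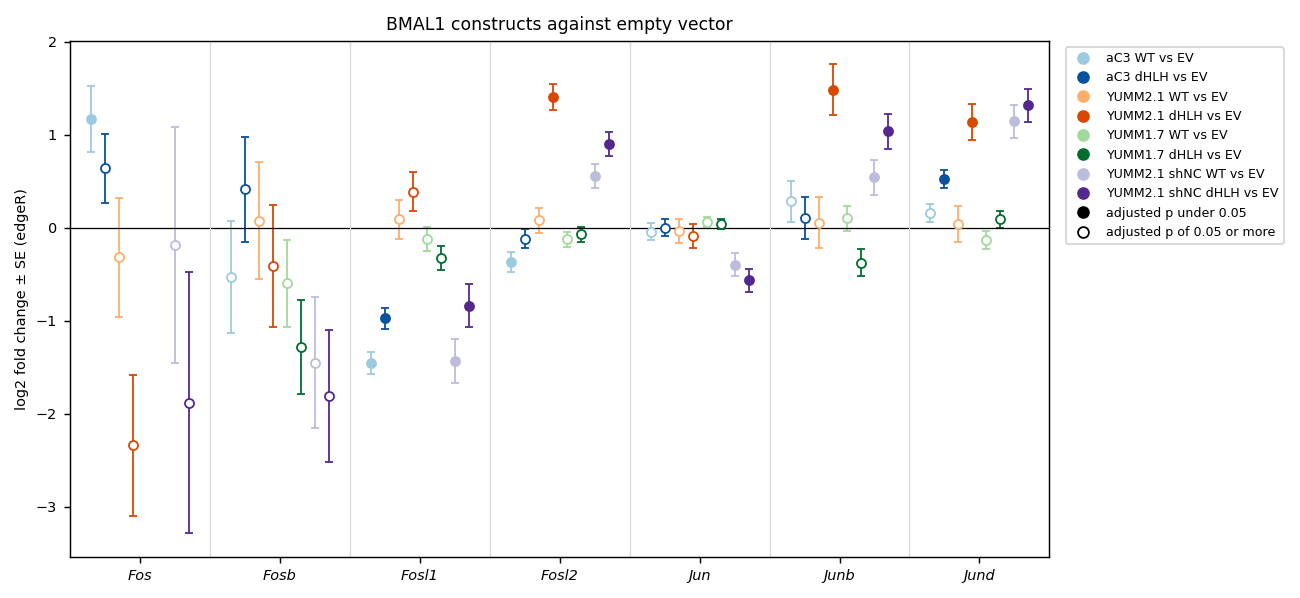
Log2 fold change of each gene for WT-Bmal1 or dHLH-Bmal1 against EV (edgeR, error bars are the SE) in aC3, YUMM2.1, YUMM1.7 and YUMM2.1 with shNC. Filled points passed an edgeR adjusted p of 0.05 and open points did not, and each comparison rests on 2 libraries a group. Fosl2, Junb and Jund are filled and above 0 for dHLH-Bmal1 in both YUMM2.1 experiments, and Fosl1 is filled and below 0 in aC3 and with shNC.

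Whether the construct effect differed between lines was tested directly as an interaction. The effect of dHLH-Bmal1 on Fosl2 was smaller in aC3 than in YUMM2.1 by a log2 difference of -1.51 (SE 0.16, edgeR adjusted p = 9.76e-06) and smaller in YUMM1.7 than in YUMM2.1 by -1.47 (SE 0.15, edgeR adjusted p = 3.13e-05). For Junb these differences were -1.37 (edgeR adjusted p = 0.00654) and -1.86 (edgeR adjusted p = 0.000793). For Jund the difference was -1.04 (edgeR adjusted p = 0.00331) in YUMM1.7, and -0.60 (edgeR adjusted p = 0.0557) in aC3. The effect on Fosl1 differed between aC3 and YUMM2.1 for WT-Bmal1 (-1.53, edgeR adjusted p = 0.0384) and for dHLH-Bmal1 (-1.34, edgeR adjusted p = 0.00371), and the effect of dHLH-Bmal1 on Fos by 3.0 (SE 0.94, edgeR adjusted p = 0.041).

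Read against the background, 4 of 7 members differed in the dHLH-Bmal1 effect between aC3 and YUMM2.1 (15.5% of all genes tested) and 3 of 7 between YUMM1.7 and YUMM2.1 (12.4%). For the WT-Bmal1 effect it was 1 of 7 between aC3 and YUMM2.1 (0.208%), and 0 of 7 between YUMM1.7 and YUMM2.1, where edgeR called 0% of all genes and 3.09% had an unadjusted p under 0.05. All of these use the same YUMM2.1 libraries. The Fosl2, Junb and Jund differences with YUMM1.7 and the dHLH-Bmal1 differences of Fosl1, Fosl2 and Junb with aC3 stood whichever library was left out. That of Fos with aC3 was lost in 11 such fits (2.12 to 3.16, adjusted p of 0.0536 to 0.201) and the WT-Bmal1 difference of Fosl1 in 12 (-1.68 to -1.22, adjusted p of 0.0551 to 0.232). With the YUMM2.1 labels exchanged or without both libraries, the dHLH-Bmal1 effect on Jund in aC3 differed as well (-0.64, adjusted p = 0.0174, and -0.81, adjusted p = 0.0144), and so did that on Fosl1 in YUMM1.7 (-0.87, adjusted p = 0.0101, and -0.80, adjusted p = 0.0484). The WT-Bmal1 effect on Fos in aC3 differed with the labels exchanged (2.56, adjusted p = 0.0299) and was not called without both libraries (2.86, adjusted p = 0.131). All 8 differences called with the deposited labels were called in both of these fits. With the labels exchanged, the dHLH-Bmal1 effect differed for 5 of 7 members in aC3 (23.6% of all genes) and 4 of 7 in YUMM1.7 (20.6%), and the WT-Bmal1 effect for 2 of 7 (7.58%) and 0 of 7 (1.25%). Without both libraries these were 5 (17.6%), 4 (15%), 1 (1.72%) and 0 (0.33%).

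In the hairpin experiment, YUMM2.1 cells with the scrambled hairpin shNC differed between constructs in 5 of the 7 genes, and here WT-Bmal1 moved them as well as dHLH-Bmal1. Fosl1 read 85.1 and 81.3 CPM with EV, 35.3 and 26.3 CPM with WT-Bmal1 and 51.2 and 40.7 CPM with dHLH-Bmal1. Jun read 220 and 220, then 177 and 155, then 152 and 142 CPM. Both genes were lower in every construct library than in any EV library.

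The other 3 genes went up. Fosl2 read 76.3 and 82.9 CPM with EV, 112 and 121 CPM with WT-Bmal1 and 145 and 150 CPM with dHLH-Bmal1. Junb read 24.3 and 21.6, then 32.4 and 34.2, then 44.2 and 49.8 CPM, and Jund 71.0 and 65.9, then 145 and 157, then 175 and 163 CPM. The libraries of the 3 groups do not overlap for any of these 3 genes, with dHLH-Bmal1 highest.

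Against EV, WT-Bmal1 cells had log2 differences of -1.43 for Fosl1 (SE 0.24, edgeR adjusted p = 0.000309), 0.55 for Fosl2 (SE 0.13, edgeR adjusted p = 0.00558), 1.14 for Jund (SE 0.18, edgeR adjusted p = 0.000151), -0.40 for Jun (SE 0.12, edgeR adjusted p = 0.025) and 0.54 for Junb (SE 0.19, edgeR adjusted p = 0.0493). For dHLH-Bmal1 they were -0.84 for Fosl1 (SE 0.23, edgeR adjusted p = 0.012), 0.90 for Fosl2 (SE 0.13, edgeR adjusted p = 5.5e-05), 1.31 for Jund (SE 0.18, edgeR adjusted p = 2.36e-05), -0.57 for Jun (SE 0.12, edgeR adjusted p = 0.0021) and 1.04 for Junb (SE 0.19, edgeR adjusted p = 0.000461). These were 5 of 7 members in each comparison, beside 22.3% and 26.4% of all genes tested. Between dHLH-Bmal1 and WT-Bmal1, 0 of 7 were called (1.91% of all genes, and 13.1% at an unadjusted p under 0.05), with log2 differences of 0.50 for Junb (edgeR adjusted p = 0.228) and 0.35 for Fosl2 (edgeR adjusted p = 0.233). Fosb, an immediate early subunit, had 46 and 28 counts with EV against 19 and 7 with dHLH-Bmal1 (log2 -1.81, SE 0.71, edgeR adjusted p = 0.0701).

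The Jund calls in both comparisons, and the Fosl2, Jun and Junb calls with dHLH-Bmal1, stood whichever of the 18 libraries was left out. The Junb call with WT-Bmal1 was lost in 14 of those 18 fits (0.44 to 0.63, adjusted p of 0.0503 to 0.267), and Prdx2, which overlaps Junb, was itself higher with WT-Bmal1 (log2 0.31, edgeR adjusted p = 0.0279). For dHLH-Bmal1 against EV, Prdx2 had a log2 difference of 0.16 (edgeR adjusted p = 0.245). The part of Prdx2 reads in the Junb count was not tested. Of 3 melanocytic markers tested, Sox10 alone was called against EV, and it was lower here too. It stood at 330 to 334 CPM with EV, 98.7 to 99.8 CPM with WT-Bmal1 and 22.7 to 26.1 CPM with dHLH-Bmal1. The median log2 difference of the 3 markers was 0.37 with WT-Bmal1 and 0.03 with dHLH-Bmal1. Of 4 other-cell markers tested, Cdh5 was higher with WT-Bmal1 by log2 2.12 (edgeR adjusted p = 2.16e-05) and higher with dHLH-Bmal1 by 1.5 (edgeR adjusted p = 0.000543), and its part was not tested. The Fosl2 call with WT-Bmal1 was lost without EV replicate 1 (0.50, adjusted p = 0.0747) or WT-Bmal1 replicate 2 (0.50, adjusted p = 0.0629). The Jun call with WT-Bmal1 was lost without EV replicate 1 (-0.40, adjusted p = 0.0985), EV replicate 2 (-0.42, adjusted p = 0.0882) or WT-Bmal1 replicate 2 (-0.31, adjusted p = 0.207). The Fosl1 call with dHLH-Bmal1 was lost without EV replicate 1 (-0.81, adjusted p = 0.07), EV replicate 2 (-0.88, adjusted p = 0.0519) or dHLH-Bmal1 replicate 2 (-0.70, adjusted p = 0.12).

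The EV cells of the 2 YUMM2.1 experiments started from different levels. Junb was 22.97 ± 1.88 CPM (SD, n = 2) in EV cells with shNC and 10.9 ± 2.60 CPM in EV cells without a hairpin, and Fosl2 was 79.6 ± 4.61 and 41.0 ± 3.57 CPM. Hairpin vector, selection and experiment changed together between these groups and cannot be told apart, so no test was made across them. Side by side, dHLH-Bmal1 against EV gave log2 differences of 0.90 with shNC and 1.40 without for Fosl2, 1.04 and 1.48 for Junb, and 1.31 and 1.14 for Jund. Fosl1 gave -0.84 with shNC and 0.39 without, the 2 values pointing in opposite directions.

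Myh9 was lower than with shNC in all 6 hairpin comparisons, by log2 -1.51, -2.04 and -1.69 with shMyh9#2 in EV, WT-Bmal1 and dHLH-Bmal1 cells and by -0.52, -0.93 and -0.42 with shMyh9#4 (edgeR adjusted p of 0.00715 or less). Among the members, hairpin effects were called in WT-Bmal1 cells with shMyh9#2 and in dHLH-Bmal1 cells with shMyh9#4, where Junb and Fosl2 fell. In EV cells no member was called with either hairpin.

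Junb read 32.4 and 34.2 CPM in WT-Bmal1 cells with shNC, 15.7 and 17.04 with shMyh9#2 and 18.9 and 29.8 with shMyh9#4. In dHLH-Bmal1 cells it read 44.2 and 49.8, 26.8 and 32.9, and 17.2 and 19.98 CPM. In EV cells it stayed at 21.6 to 30.3 CPM in all 6 libraries. Every hairpin library of the construct cells was thus below the shNC libraries of the same cells, whereas in EV cells the shMyh9#2 libraries lay between the shNC libraries and those of shMyh9#4 above them.

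In WT-Bmal1 cells, shMyh9#2 lowered Junb to 0.489 of its shNC level (log2 -1.03, SE 0.19, edgeR adjusted p = 0.00328). In dHLH-Bmal1 cells, shMyh9#4 lowered it to 0.406 (log2 -1.30, SE 0.20, edgeR adjusted p = 0.00107). The first call was lost without the first shMyh9#2 library (-0.96, adjusted p = 0.0646), and the second stood whichever library was left out. In the remaining combinations the log2 difference of Junb was -0.43 (WT-Bmal1 with shMyh9#4, edgeR adjusted p = 0.37) and -0.64 (dHLH-Bmal1 with shMyh9#2, edgeR adjusted p = 0.175). Prdx2 had log2 differences of -0.30 (edgeR adjusted p = 0.085) in the first and -0.25 (edgeR adjusted p = 0.094) in the second of the called comparisons.

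Fosl2 read 112 and 121 CPM in WT-Bmal1 cells with shNC and 69.1 and 76.0 CPM with shMyh9#2 (log2 -0.69, SE 0.13, edgeR adjusted p = 0.00433). In dHLH-Bmal1 cells it read 145 and 150 CPM with shNC and 103 and 97.6 CPM with shMyh9#4 (log2 -0.54, SE 0.13, edgeR adjusted p = 0.0119). Neither pair of groups overlaps. The first call was lost without WT-Bmal1 shNC replicate 2 (-0.64, adjusted p = 0.0624) or shMyh9#2 replicate 1 (-0.61, adjusted p = 0.089). The second was lost without dHLH-Bmal1 shNC replicate 1 (-0.57, adjusted p = 0.0722), shNC replicate 2 (-0.53, adjusted p = 0.0703) or shMyh9#4 replicate 2 (-0.51, adjusted p = 0.132).

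Fosl1 in dHLH-Bmal1 cells fell from 51.2 and 40.7 CPM with shNC to 24.0 and 15.8 CPM with shMyh9#4 (log2 -1.23, SE 0.27, edgeR adjusted p = 0.00594), a call lost without shNC replicate 1 (-1.04, adjusted p = 0.0852) or shMyh9#4 replicate 2 (-0.94, adjusted p = 0.15). These shMyh9#4 libraries hold 3643332 and 6001340 counts, the first being the shallowest library of the series, and 85 and 91 counts stand behind the Fosl1 values. In WT-Bmal1 cells Fosl1 read 35.3 and 26.3 CPM with shNC and 55.3 and 48.8 CPM with shMyh9#2 (log2 0.75, SE 0.24, edgeR adjusted p = 0.081), and in EV cells 85.1 and 81.3 against 49.3 and 57.1 CPM (log2 -0.64, SE 0.23, edgeR adjusted p = 0.111). Jun passed in no hairpin comparison, with log2 differences from -0.13 to 0.17, and neither did Jund. Fos had 0 counts in both dHLH-Bmal1 libraries with shMyh9#2, which allows up to 0.61 and 0.204 CPM.

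The members called were 0 of 7 in EV cells with shMyh9#2 (6.65% of all genes tested) and with shMyh9#4 (1.71%), 2 of 7 in WT-Bmal1 cells with shMyh9#2 (4.76%), 0 with shMyh9#4 (0.236%), 0 in dHLH-Bmal1 cells with shMyh9#2 (0.559%) and 3 with shMyh9#4 (15.1%). Sox10 was higher in the last of these (log2 0.92, edgeR adjusted p = 0.000469) and lower in WT-Bmal1 cells with shMyh9#2 (-1.48, edgeR adjusted p = 2.39e-07), where Junb and Fosl2 fell as well. It was also lower with shMyh9#2 in EV (-0.83, edgeR adjusted p = 7.59e-05) and dHLH-Bmal1 cells (-0.90, edgeR adjusted p = 0.003) and with shMyh9#4 in EV cells (-0.44, edgeR adjusted p = 0.0374), and stood at -0.51 (edgeR adjusted p = 0.0584) in WT-Bmal1 cells with shMyh9#4. No other of the 3 melanocytic markers tested was called in these hairpin comparisons. Their median was 0.63 and 0.37 in EV cells with shMyh9#2 and shMyh9#4, 0.50 in dHLH-Bmal1 cells with shMyh9#4, and negative in the rest. The part of Sox10 in these results was not tested. In the comparisons with no member called, edgeR gave 10.2% to 21.1% of all genes an unadjusted p under 0.05. Each construct's shNC libraries serve both of its hairpin comparisons and also the construct comparisons above.

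**Figure D4:**
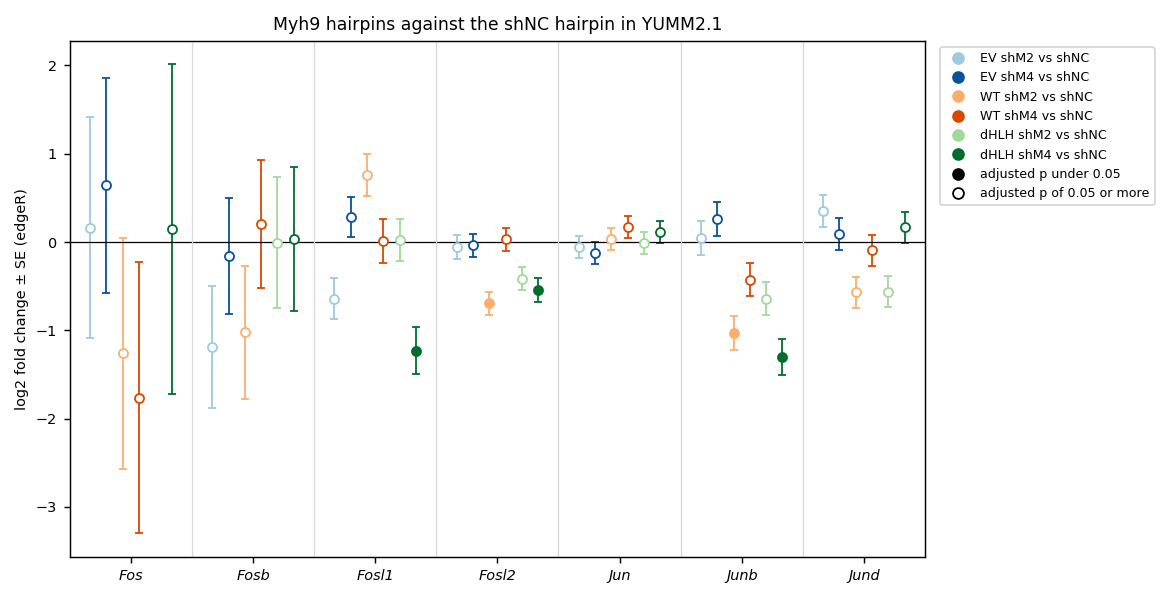
Log2 fold change of each gene for shMyh9#2 (shM2) or shMyh9#4 (shM4) against shNC in YUMM2.1 cells of each construct (edgeR, error bars are the SE, 2 libraries a group). Filled points passed an edgeR adjusted p of 0.05, and Fos in dHLH-Bmal1 cells with shM2 is left out because it had no counts there. Filled points below 0 are Junb and Fosl2 for WT-Bmal1 with shM2 and Fosl1, Fosl2 and Junb for dHLH-Bmal1 with shM4.

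The hairpin effect was also compared between constructs as an interaction. That of shMyh9#2 was lower in WT-Bmal1 than in EV cells for Junb (log2 -1.08, SE 0.27, edgeR adjusted p = 0.0278) and Jund (-0.92, SE 0.25, edgeR adjusted p = 0.0388) and higher for Fosl1 (1.40, SE 0.33, edgeR adjusted p = 0.0206). That of shMyh9#4 was lower in dHLH-Bmal1 than in EV cells for Junb (-1.56, SE 0.28, edgeR adjusted p = 0.0027) and Fosl1 (-1.52, SE 0.35, edgeR adjusted p = 0.014). These are 3 of 7 members beside 5.18% of all genes tested and 2 of 7 beside 8.51%. For shMyh9#2 in dHLH-Bmal1 cells (3.29% of all genes) and shMyh9#4 in WT-Bmal1 cells (0.741%) edgeR called 0 of 7, and 16.8% and 10.9% of all genes had an unadjusted p under 0.05. The Junb difference with shMyh9#4 stood whichever library was left out, and the other 4 were lost in 4 to 10 of the 18 fits.

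Among the genes around AP-1, the partner list holds 17 bZIP genes of the ATF, BATF, JDP and MAF families, 11 of them tested in YUMM2.1. With dHLH-Bmal1 against EV, 4 of these 11 rose and none fell (median log2 0.18, against -0.01 over all genes), where 6.51% of all genes tested were called higher and 6.72% lower, among them Jdp2, which dimerizes with JUN proteins (log2 1.06, SE 0.21, edgeR adjusted p = 0.0199), Atf5 (1.05) and Atf6, an endoplasmic reticulum stress sensor (1.02). In the shNC cells, 4 of 11 rose with dHLH-Bmal1 and none fell (median 0.29 against 0.02), beside 13.9% of all genes higher and 12.5% lower, with Atf5 at 1.76 and Jdp2 at 1.32. With WT-Bmal1, 4 rose and Maf fell (log2 -0.81, edgeR adjusted p = 0.000277), at a median of -0.08 against 0.02, where 11.7% of all genes were higher and 10.6% lower. In aC3, WT-Bmal1 lowered 2 of 11, Atf4 (-0.32) and Mafg (-0.30), and raised none, where 4.92% of all genes were higher and 6.28% lower.

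The immediate early list holds 16 genes, such as Egr1 and Nr4a1, that are induced with Fos. In YUMM2.1 with dHLH-Bmal1 against EV, 1 of 14 tested rose and 4 fell (median log2 -0.08 against -0.01). Beside them, 6.51% of all genes were higher and 6.72% lower, so that the share that rose was near that of all genes. Egr2 at -3.81 (edgeR adjusted p = 0.00169) and Nr4a1 at -3.34 (edgeR adjusted p = 0.042) were among those that fell. Ccn1, a matricellular gene, alone rose, at 3.28 (edgeR adjusted p = 0.0165). In shNC cells 3 of 14 rose and 5 fell with either construct (medians of -0.55 for WT-Bmal1 and -0.19 for dHLH-Bmal1, against 0.02). The background for WT-Bmal1 against EV was 11.7% of all genes called higher and 10.6% called lower. For dHLH-Bmal1 against EV the background was 13.9% higher and 12.5% lower. Egr1 was at -2.81 with WT-Bmal1 (edgeR adjusted p = 7.68e-07). In aC3 with WT-Bmal1, where Fos was called higher, Nr4a2 (0.62) and Ier3 (0.53) rose and none of the 14 fell. There 4.92% of all genes were higher and 6.28% lower. In YUMM1.7, 0 of 13 tested were called with edgeR in each of the 3 comparisons. The shares of all genes called were 0.138% for WT-Bmal1 against EV, 0.63% for dHLH-Bmal1 against EV and 2.57% for dHLH-Bmal1 against WT-Bmal1.

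Of 22 upstream genes, the kinases and SRF cofactors that act on FOS and JUN, all were tested in YUMM2.1. In YUMM2.1 with dHLH-Bmal1 against EV, none rose and Rps6ka1, a kinase downstream of ERK, fell (log2 -2.61, SE 0.27, edgeR adjusted p = 0.00264), at a list median of -0.08 against -0.01. Of all genes tested there, 6.51% were called higher and 6.72% lower. In shNC cells, Rps6ka1 fell with WT-Bmal1 (-1.88, edgeR adjusted p = 0.00186) and dHLH-Bmal1 (-3.36, edgeR adjusted p = 1.4e-05), and Mapk10 rose with both (1.47 and 1.60). In all, 3 of 22 rose and 2 fell with WT-Bmal1, and 4 rose and 3 fell with dHLH-Bmal1, shares near the 22.3% and 26.4% of all genes called in these comparisons. In aC3, Map3k1 (0.79 with WT-Bmal1 and 0.61 with dHLH-Bmal1) and Mapk3 (0.28 and 0.47) rose with each construct. These were 2 of 21 tested, with none lower, beside 4.92% of all genes higher with WT-Bmal1 and 4.79% with dHLH-Bmal1.

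The target list holds 32 genes with AP-1 sites known from other systems, such as matrix proteases. In YUMM2.1 with dHLH-Bmal1 against EV, 7 of 28 tested rose and 2 fell (median log2 0.33 against -0.01), beside 6.51% and 6.72% of all genes, with Ptgs2, a prostaglandin synthase (log2 4.23, edgeR adjusted p = 0.0138), and Thbs1, a matrix glycoprotein (2.35), among those that rose. In shNC cells 4 of 29 rose and 12 fell with WT-Bmal1 (median -0.41 against 0.02), beside 11.7% of all genes higher and 10.6% lower. With dHLH-Bmal1 7 rose and 10 fell (median -0.15 against 0.02), beside 13.9% and 12.5%, with Thbs1 (1.84) among those higher with WT-Bmal1 and Mmp1a, a collagenase, at -2.82 with dHLH-Bmal1. Mmp9, a gelatinase, was called higher with each construct from 0 counts in both EV libraries, at 0.68 to 2.50 CPM with WT-Bmal1 and 3.96 to 4.22 CPM with dHLH-Bmal1. In aC3 with WT-Bmal1, 4 of 25 fell and none rose, led by Ccl2 (-1.09), Hmga2 (-0.68) and Hmga1 (-0.63). There 6.28% of all genes were lower and 4.92% higher. In dHLH-Bmal1 cells with shMyh9#4, where Junb, Fosl2 and Fosl1 fell, 3 of 29 rose and 7 fell (median -0.14 against -0.0037), beside 6.28% of all genes higher and 8.86% lower, with Ccl2 at -2.50 (edgeR adjusted p = 0.00117) among those that fell. In WT-Bmal1 cells with shMyh9#2, where Junb and Fosl2 fell, 4 of 29 rose and 1 fell (median 0.06 against 0.00059). Beside them, 2.35% of all genes were higher and 2.41% lower. In YUMM1.7, Plau, a plasminogen activator, rose with dHLH-Bmal1 against EV (1.40, edgeR adjusted p = 0.00569), and 2 of 27 rose and 2 fell, beside 0.21% and 0.42% of all genes. Against YUMM2.1, B16-F10 Ctrl, with 5 counts of Fosl1 in all, had 22 of 29 targets lower and 1 higher (median -4.36 against -0.01), where 29.2% of all genes were lower and 25% higher. In that comparison 7 of the 29 had 0 counts in a whole group, and with these set to the bound that 3 counts a library allow the median was -2.63. In YUMM1.7 EV against YUMM2.1 EV, where Fosl1 was higher, 9 of 29 targets were higher and 8 lower (median 0.01 against 0). Beside them, 17.8% of all genes were higher and 19.3% lower. With the YUMM2.1 labels exchanged, 15 targets were higher and 9 lower there (median 0.26), beside 48.5% of all genes called. Without both doubted libraries the median was 0.22.

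The doubt about the YUMM2.1 labels touches these lists too. For dHLH-Bmal1 against EV with the 2 labels exchanged, 4 partners rose and 1 fell, 3 immediate early genes rose and 5 fell, 3 upstream genes rose and 5 fell, and 12 targets rose and 5 fell, beside 28.7% of all genes called. Without both libraries the counts were 4 and 0, 2 and 4, 1 and 1, and 6 and 2, beside 11.9% of all genes. In B16-F10 Ctrl against YUMM2.1, 24 of 29 targets were lower and 1 higher in both of these fits. Beside them, 61.7% of all genes were called with the labels exchanged and 51.7% without both libraries.

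Across the 20 group means of log2 CPM the members fell into a few patterns, given as a description since groups share lines and experiments. Fosl1 and Jun ran together (Pearson's r = 0.95 over 20 groups, 0.79 over the 18 groups without B16-F10), and so did Fosl2 and Junb (0.87 and 0.86). Fos ran against Fosl2 (-0.51, and -0.81 without B16-F10), and Jun against Jund outside B16-F10 (-0.71). Among genes with a mean of at least 10 CPM, the most like Fosl1 were Lrig1 (r = 0.99), Slc30a4 (0.98) and Pxdn (0.98), the most like Jun were Opn3, Ank3 and Snhg18 (0.97 each), and the most like Fosl2 were Rpl22, Rin1 and Setbp1 (0.97 each). The most like Junb were Gsto1 (0.93), Inhba (0.92) and Ndufs8 (0.92), and the most like Jund were Mtif3 (0.94), Tcf25 (0.93) and Lamtor4 (0.93). For Fos they were Mecom, Gm48146 and Itgb3 (0.92 each) and for Fosb Coro1c (0.89), Iffo2 (0.86) and Ppp1ca (0.86), on the few reads of these 2 genes. Over the 18 groups without B16-F10, r with these genes was lower for Fosl1 (0.84 to 0.91), Jun (0.88 to 0.90) and Fosb (0.71 to 0.80), and was 0.91 to 0.96 for the genes named for the other 4 members.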

How the data were processed

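QuantSeq 3′ RNA sequencing was run on 40 libraries. The authors aligned reads to mm10 with bowtie2, used RSEM to estimate counts for each Ensembl gene and deposited them as whole-number counts without normalization. The submitters' processing notes give RSEM 1.2.3. The release of Ensembl and whether counting used strand are not given in the sources used here.

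Symbols come from GENCODE M21 (99.63% of identifiers matched), promoters from RefSeq GRCm38.p6. Counts were scaled by TMM, filtered with filterByExpr and fitted with edgeR 4.0.16 in R 4.3.3, each line or experiment in its own fit. The SE is the log2 fold change divided by the root of F. Alternatives were DESeq2 1.42.0, its size factors, other filters, 1 fit of all 40 libraries, a replicate block, left-out libraries, and the YUMM2.1 labels exchanged or left out. Fits were tested on simulated data.

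Deviations from group means of libraries that share a number correlated at 0.218 to 0.482 in all 3 group pairs of YUMM2.1. In aC3 these correlations ran from 0.029 to 0.0889, and in the other fits with 3 or more pairs the lowest was negative. With the 2 doubted labels exchanged, those of YUMM2.1 ran from -0.216 to 0.242. In log2 CPM over genes, the 2 deposited EV libraries of YUMM2.1 correlated at 0.968 with each other. EV replicate 1 was closest to WT-Bmal1 replicate 1 (0.987) and EV replicate 2 to WT-Bmal1 replicate 2 (0.983). In YUMM2.1, shared numbers and exchanged labels cannot be told apart. The reported fits, that of YUMM2.1 included, did not take the numbers as pairs, and the replicate block was run as an alternative.

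All 7 members were named in every comparison, with up to 3 called genes a list by fold change and the 3 most like genes a member. Members and lists were chosen with earlier results of these data known. Some items that this rule names are not reported here.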

Additional observations from a re-analysis of the deposited data

Results flagged for a closer look

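In 13 cases an effect on a FOS or JUN gene differed between cell lines or constructs by a test of the difference itself (interaction terms, edgeR adjusted p under 0.05, n = 2 libraries a group). All differences are on the log2 scale.

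For dHLH-Bmal1 against EV, the effect in aC3 minus that in YUMM2.1 was 3.0 for Fos, -1.34 for Fosl1, -1.51 for Fosl2 and -1.37 for Junb. In YUMM1.7 minus YUMM2.1 it was -1.47 for Fosl2, -1.86 for Junb and -1.04 for Jund. For WT-Bmal1 against EV, the effect in aC3 minus that in YUMM2.1 was -1.53 for Fosl1. All 8 share the YUMM2.1 libraries, which include the 2 with doubted labels, and they are not independent of each other.

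For shMyh9#2 against shNC, the effect in WT-Bmal1 cells minus that in EV cells was 1.40 for Fosl1, -1.08 for Junb and -0.92 for Jund. In the 6, 8 and 10 fits without a library in which these were lost, they ran from 1.21 to 1.5, -1.16 to -0.96 and -1.0 to -0.79. For shMyh9#4, the effect in dHLH-Bmal1 cells minus that in EV cells was -1.52 for Fosl1 and -1.56 for Junb. That of Fosl1 was lost in 4 such fits (-1.49 to -1.16). The dHLH-Bmal1 libraries with shMyh9#4 hold 3643332 and 6001340 counts, and the part of depth in these results was not tested.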

How the results depend on the processing

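Counts of members called moved by over 1.5 times under 3 settings. In aC3, 5 calls became 3 with the DESeq2 Wald test and 1 in the fit of all 40 libraries. In B16-F10, 0 became 1 in that fit (Jund, adjusted p = 0.00572). With no filter on low counts, the 5 hairpin calls became 9 and the 0 in YUMM1.7 became 1 (Fosl1, dHLH-Bmal1 against EV, adjusted p = 0.00013). No called value changed sign under any setting. With each library left out in turn, calls ranged from 2 to 5 in aC3, 0 to 3 in B16-F10, 13 to 17 between lines (15 as reported), 6 to 9 for construct by line (8), 6 to 11 for constructs with shNC (10), 1 to 8 for hairpin by construct (5), 3 to 6 for the hairpins (5), 0 to 2 in YUMM1.7 and 4 to 6 in YUMM2.1 (6). Where a group kept 1 library, it was assumed to vary like the others.

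With the replicate block the counts were 6 in aC3, 0 in B16-F10, 15 between lines, 8 for construct by line, 9 for constructs with shNC, 5 for hairpin by construct, 5 for the hairpins, 0 in YUMM1.7 and 7 in YUMM2.1. Outside YUMM2.1 the libraries share only a number, and there the block added Jund for dHLH-Bmal1 against WT-Bmal1 in aC3 (0.37, adjusted p = 0.0437) and the shMyh9#2 difference of Fosl2 between WT-Bmal1 and EV (-0.64, adjusted p = 0.0464). It lost Junb for WT-Bmal1 with shNC (adjusted p = 0.0511) and the shMyh9#2 difference of Jund (adjusted p = 0.0507). Fos and Fosb rest on at most 55 and 46 counts a library.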
